A study of Mus musculus with 6 samples.

Results

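The genes of the circadian clock were followed through coronal sections of the mouse brain at 3 ages. Members were the rows of the count tables carrying 1 of 10 symbols (Per1, Per2, Per3, Dbp, Nr1d1, Nr1d2, Cry1, Cry2, Ciart and Tef), and 9 of the 10 were matched among the 19465 genes measured. Ciart is not analysed here. The study mapped gene expression across regions and life stages with 10x Genomics Visium, in which probe pairs against each transcript are captured on a grid of barcoded spots, each spanning several cells, and counted as unique molecular identifiers (UMIs). The 6 sections came from formalin-fixed, paraffin-embedded brains of male C57BL/6J mice, 2 sections per age. No genetic change or treatment was applied to any group. P21 mice (postnatal day 21) were bred from purchased parents, adult mice (12 to 15 weeks) were purchased from Jackson Laboratory, and aged mice (28 months) came from the NIA. All were kept under a 12-hour light/dark cycle. The hour at which each brain was taken is not given in the sources used here, so age and time of day cannot be told apart for genes whose transcripts cycle. P21 and adult sections were mounted directly on Visium v1 slides, whereas aged sections were transferred by CytAssist to Visium v2 slides, with a probe design described as improved. The paper also gives a later version of the counting software for aged sections. In the comparison of aged with adult sections, age therefore cannot be told apart from slide version, probe design, software version and the source of the mice. P21 and adult mice differed in where they were bred. The labels call the 2 sections of an age biological replicates.

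The molecular clock is a transcriptional feedback loop. CLOCK and BMAL1 (encoded by Arntl) drive transcription of the Period and Cryptochrome genes through E-box elements, and PER and CRY proteins return to repress them. A second loop runs through the nuclear receptors REV-ERBα and REV-ERBβ, encoded by Nr1d1 and Nr1d2, which repress Arntl, and the PAR bZIP factors DBP and TEF carry the rhythm to further genes through D-box elements. The suprachiasmatic nucleus of the hypothalamus is the pacemaker of the mammalian brain, whereas other regions keep rhythms of their own. Per1 and Per2 also respond within hours to neuronal activity and to glucocorticoids.

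Promoter sequences of the members are shown for the elements that link the loops. RefSeq promoters (GRCm38.p6, 250 bases before to 50 after a start site) were matched for 9 of the 10 symbols, with Per2 left without a sequence. The 250 bases before each start were searched on both strands for the E-box CACGTG, the D-box TTATGTAA or TTACGTAA, the receptor element cores TAGGTCA and TGGGTCA, and the cAMP element TGACGTCA. The E-box was found in promoters of Per1, Cry1, Tef and Ciart, whereas 6.02% of all 32851 promoters held one. The D-box was found in the promoter of Per3, with 2 matches to TTATGTAA, against 0.931% of all promoters. Neither the receptor element core (5.38% of all promoters) nor the cAMP element (1.55%) was found in these windows of the members. A match is a string of letters and does not show binding. The stretches that hold the matches in 3 measured members follow, 120 bases each, 5′ to 3′ on the gene's strand, with the matched element in capitals.
Per1 (chr11:69098726-69098845, forward strand): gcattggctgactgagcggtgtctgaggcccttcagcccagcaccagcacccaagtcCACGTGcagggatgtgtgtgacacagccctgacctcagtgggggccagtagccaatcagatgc
Cry1 (chr10:85185055-85185174, reverse strand): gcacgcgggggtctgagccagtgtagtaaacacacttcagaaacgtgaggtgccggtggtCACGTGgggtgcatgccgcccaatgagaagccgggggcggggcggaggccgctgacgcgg
Per3 (chr4:151044784-151044903, reverse strand): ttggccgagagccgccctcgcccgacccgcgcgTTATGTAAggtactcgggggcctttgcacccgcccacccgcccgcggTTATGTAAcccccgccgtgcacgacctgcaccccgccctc
The E-box began 166 bases before the start of Per1, 60 bases before that of Cry1 and, in Tef, 127 and 138 bases before its 2 annotated starts. In Per3, the D-box matches began 205 and 158 bases before the start. By GENCODE vM21, the Per1 stretch lay in an intron downstream of an earlier start of Per1, the Per3 stretch in an intron of Camta1 on the same strand, and the last 10 bases of the Cry1 stretch in an exon of Cry1.

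The sections held 42422997 to 106783660 UMIs each, and 20336 spots were kept. Clusters made without the clock genes were named by marker panels as cortex (CTX, 4513 spots), hippocampus (HP, 1934), thalamus (TH, 3319), hypothalamus (HY, 3581), striatum (STR, 1143) and fiber tracts (FT, 2166), beside smaller zones, and 1979 spots (9.73%) were left unnamed. Leading genes included Prkcd in TH and Adora2a and Drd2 in STR. These belong to the panels that gave the names, so they are no separate check of them. Hcrt, outside the HY panel, was among the leading genes in HY. FT was led by C4b, Klk6 and Apod, which are not in its panel. Markers of the suprachiasmatic nucleus varied in HY. Prok2 stood at 0.223 to 1.31 CPM (counts per 1000000 UMIs of the zone or section), Vipr2 at 1.18 to 2.26 CPM, Six6 at 0 to 5.88 CPM, Lhx1 at 3.38 to 12.9 CPM and Vip at 2.75 to 20.9 CPM over the 6 sections. Nms, another of its markers, is not analysed here. The pacemaker was not resolved as a zone, and HY values cover the hypothalamus in the sections as a whole. Avp, which the pacemaker shares with other hypothalamic nuclei, ranged from 2.63 to 1903 CPM, with the highest values in adult replicate 2 (645 CPM) and aged replicate 1, and its part in the HY results was not tested. Spots hold mixtures of cells, so fewer cells of a type and less RNA per cell cannot be told apart.

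All 9 measured members were detected in every section. UMIs of a member per section ran from 978 for Cry1 to 25596 for Tef, and the share of spots with a UMI ran from 25.05% (Cry1) to 97.4% (Tef). Levels are given per gene and are not compared between genes, since probes differ in efficiency. Whole-section values mix regions in shares that differ between sections. HY held 706 of 3598 and 601 of 3314 spots at P21. It held 379 of 2917 and 428 of 3259 in adult and 614 of 3679 and 853 of 3569 in aged sections. The part of these shares in whole-section differences and replicate ratios was not tested. Among the Period genes, which encode repressors of the loop, Per1 (chr11:69095217-69109960) stood at 59.2 and 56.3 CPM at P21, 78.2 and 67.1 CPM in adult and 118 and 119 CPM in aged sections. Its values fell into separate ranges by age, lowest at P21 and highest in aged sections. Per2 (chr1:91415982-91459324) was measured at 25.5 and 26.5 CPM at P21, 25.9 and 37.2 CPM in adult and 71.7 and 82.1 CPM in aged sections. Both aged sections stood above all others, whereas the P21 values lay close to adult replicate 1. Per3 (chr4:151003652-151044665) was at 41.8 and 42.1 CPM at P21, 44.7 and 47.5 CPM in adult and 42.7 and 47.9 CPM in aged sections, and the aged and adult ranges overlapped.

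The cryptochromes encode the partners of PER in repression. Cry1 (chr10:85131700-85185064) stood at 23.3 and 23.1 CPM at P21, 18.9 and 24.4 CPM in adult and 38.2 and 37.8 CPM in aged sections, with both aged sections highest and P21 within the adult range. Cry2 (chr2:92403646-92434043) was measured at 95.2 and 100.4 CPM at P21, 108 and 113 CPM in adult and 187 and 156 CPM in aged sections. Its order was P21, adult and aged, without overlap. Nr1d1 (chr11:98767932-98775333) was at 90.3 and 96.2 CPM at P21, 156 and 131 CPM in adult and 176 and 148 CPM in aged sections, lowest in both P21 sections and overlapping between adult and aged. Nr1d2 (chr14:18204054-18239127) stood at 98.6 and 102 CPM at P21, 138 and 148 CPM in adult and 139.8 and 160.3 CPM in aged sections, with the same arrangement. For the output factor Dbp (chr7:45705088-45710203), the values were 111 and 116 CPM at P21, 149 and 175 CPM in adult and 148 and 129 CPM in aged sections, so P21 was lowest and aged lay at or below adult. Tef (chr15:81802421-81826863), a factor of the same family, stood at 198 and 187 CPM at P21, 211 and 229 CPM in adult and 229.7 and 239.7 CPM in aged sections, with P21 lowest and aged at or above adult. Coordinates are those of GENCODE vM21 on GRCm38.

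**Figure D1:**
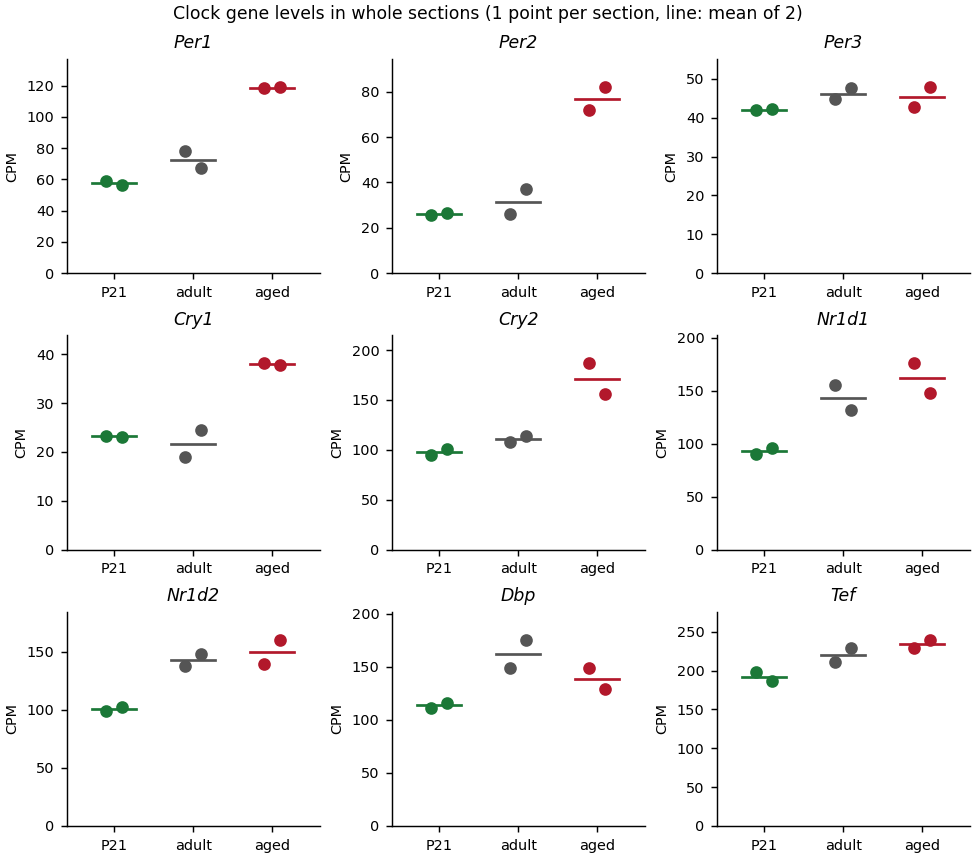
Levels of the 9 measured clock genes in whole sections, in CPM (vertical axes starting at 0) by age (horizontal axes), with 1 point per section and a line at the mean of 2 sections. Both aged sections stand highest for Per1 (118 and 119 CPM), Per2 (71.7 and 82.1 CPM), Cry1 and Cry2, whereas both P21 sections stand lowest for Nr1d1 (90.3 and 96.2 CPM), Nr1d2 and Dbp.

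By their means, the regions fell in a different order for each member, but many neighbors were not separated. Whether the orders differ between members was not tested. Levels are means ± SD over the 6 sections, which include all ages, and only neighbors in the order and its ends were compared unless stated. Per1 was highest in STR (102 ± 27.1 CPM) and lowest in HY (65.5 ± 11.4 CPM), 1.52-fold apart over all ages. The order of Per1 changed with age. At P21 its mean was lowest in FT (50.5 CPM) and CTX (52.5 CPM), below HY (57.6 CPM), whereas in aged sections CTX was highest (154 CPM). Per2 differed most, at 63.0 ± 27.6 CPM in STR and 27.1 ± 14.6 CPM in TH, 2.35-fold apart, with TH below FT and FT below HY in 6 of 6 sections. STR was above HP and HY in 6 of 6 sections, whereas CTX held no constant place among them. The order of Per2 changed with age as well. At P21 it stood at 24.6 and 24.4 CPM in CTX, below STR (37.1 and 44.1 CPM). In aged sections CTX reached 112 CPM, above the highest STR value of any section (102.8 CPM). Per3 was also highest in STR and lowest in TH, 1.51-fold apart, and neighbors among STR, HY, CTX and HP did not separate in every section. Dbp stood at 209 ± 34.1 CPM in STR, above TH (167 ± 30.8 CPM) and with TH above CTX in 6 of 6 sections, whereas neighbors among CTX, HY, FT and HP (108 ± 11.9 CPM) were not separated. The receptors peaked elsewhere. Nr1d1 was highest over all ages in TH (165 ± 38.8 CPM), with CTX next to it and not separated from it, and the means of FT (102 ± 30.9 CPM) and HY (102 ± 18.8 CPM) at the bottom were tied. Its lowest region changed with age, from FT at P21 (63.7 CPM) to HP in adult (107 CPM, against 121 CPM in FT) and HY in aged sections (110.1 CPM). Nr1d2 was higher in TH (172 ± 39.1 CPM) than in CTX (134 ± 32.7 CPM) in 6 of 6 sections, and its remaining neighbors did not separate. Cry1 was highest in STR (41.3 ± 14.2 CPM), above TH in 6 of 6 sections, and lowest in HP (19.4 ± 3.23 CPM), 2.0-fold apart. Cry2 was the 1 member with CTX on top over all ages (147 ± 49.5 CPM) and was lowest in FT, 1.61-fold apart, with CTX above TH and HP in 6 of 6 sections and not separated from STR. Tef was higher in STR (279 ± 34.3 CPM) than in CTX in 6 of 6 sections and lowest in FT (170.0 ± 18.8 CPM), where it did not separate from TH. The top region exceeded the bottom one in 6 of 6 sections for each of the 9 members. Regions were ordered by their means over these same 6 sections, so the direction of each comparison was partly set beforehand. An exact sign-flip permutation test (two-sided, 6 sections) cannot give less than p = 0.03125, and adjusted over the 54 comparisons of this family that value became 0.0675.

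**Figure D2:**
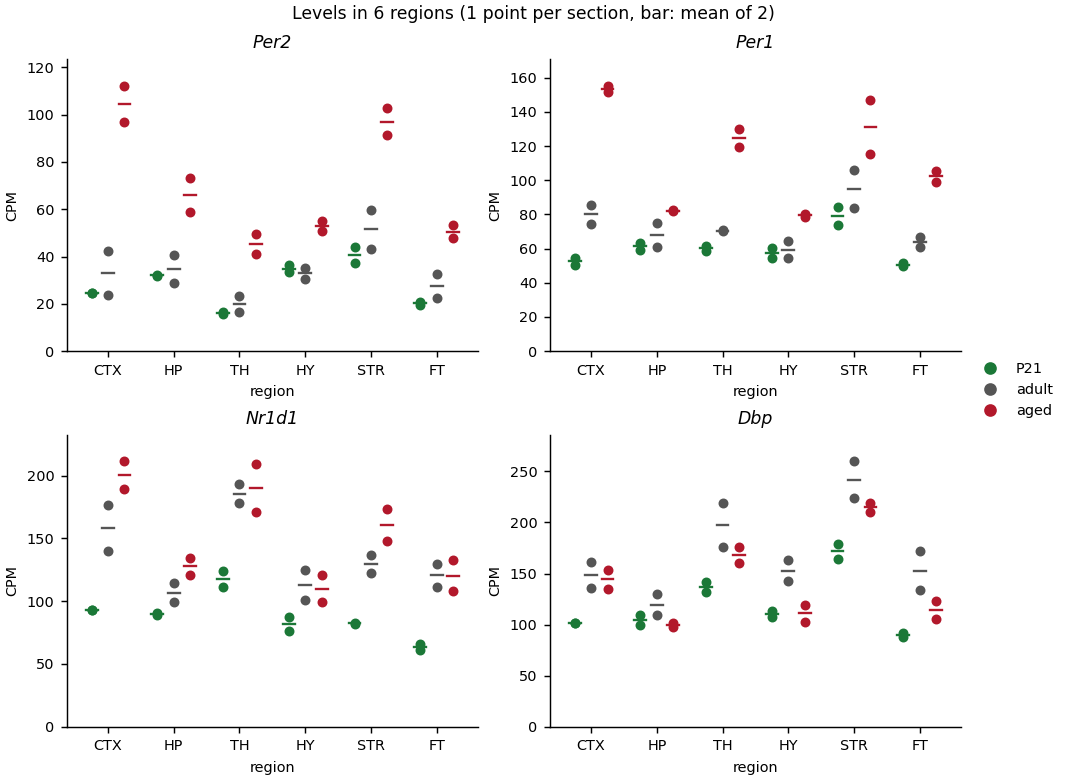
Levels of Per2, Per1, Nr1d1 and Dbp in 6 regions, in CPM (vertical axes starting at 0), with 1 point per section colored by age. In CTX the aged sections (96.9 and 112 CPM for Per2) stand far above the others, whereas in HY they lie nearer to them (50.9 and 55.1 CPM).

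The comparison of P21 with adult sections asked which members changed between weaning age and adulthood. Genes were called by edgeR's quasi-likelihood test at a Benjamini-Hochberg adjusted p under 0.05 with a fold over 1.5, over all genes tested. Nr1d1 was the 1 of 9 members called, lower at P21 with a log2 difference from adult of -0.60 ± 0.11 (SE; adjusted p = 0.00373). In the background, 5.19% of 11153 genes were called in either direction and 1.78% lower. Per1 (-0.31 ± 0.081 SE, adjusted p = 0.0208), Dbp (-0.49 ± 0.10 SE, adjusted p = 0.00615) and Nr1d2 (-0.49 ± 0.070 SE, adjusted p = 0.00136) passed the adjusted p alone, all lower at P21, without reaching the fold. The remaining 5 did not pass, among them Per2, whose log2 difference of -0.26 had a 95% interval of -0.54 to 0.019. The median log2 difference was -0.26 over the 9 members and -0.0013 over all genes tested. Of the immediate early genes, 5 of 8 were called lower at P21 beside it, and their part was not tested. The 2 ages did not overlap for 7 of 9 members, but with 2 sections each that held for 73% of all genes tested. The call of Nr1d1 was lost without P21 replicate 1 (-0.56) and without adult replicate 1 (-0.48), where the fold fell under 1.5, and Dbp was called (-0.61) without adult replicate 1.

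By region, 7 of 54 gene and region pairs were called between P21 and adult, all 7 lower at P21, against 6.19% of all pairs tested and 2.2% for lower calls. Over single regions, the share of genes called in either direction was 5.46% in CTX, 7.09% in HP, 7.06% in TH, 4.19% in HY, 3.93% in STR and 9.37% in FT. Nr1d1 accounted for 4 of the 7 pairs. In CTX it stood at 92.9 and 93.0 CPM at P21 and 177 and 140.4 CPM in adult sections, a log2 difference of -0.75 ± 0.11 (SE; adjusted p = 0.000656). In FT it stood at 66.1 and 61.4 CPM against 129.6 and 112 CPM (-0.84 ± 0.11 SE, adjusted p = 9.8e-06). It was also lower in TH (-0.62) and STR (-0.62). Nr1d2, its paralog, was lower at P21 in FT, at 72.2 and 67.6 CPM against 127 and 127 CPM (-0.78 ± 0.088 SE, adjusted p = 1.66e-06), and in CTX (-0.60), and it passed the adjusted p in all 6 regions. Dbp was called in FT, at 87.6 and 91.5 CPM against 134 and 172 CPM (-0.70 ± 0.11 SE, adjusted p = 0.00011). FT thus held 3 of the 7 calls. No member was called in HP or HY. In HP, Nr1d1 differed by -0.26 (adjusted p = 0.137) and in HY by -0.46 (adjusted p = 0.0781). The calls of Nr1d1 in CTX, STR and TH did not hold in edgeR without adult replicate 1 (-0.57, -0.54 and -0.57). Those in TH and STR were also lost without P21 replicate 1 (adjusted p = 0.0732 and 0.11), that in STR over interior spots (adjusted p = 0.117), and those of Nr1d2 in CTX (-0.57) and Dbp in FT (-0.51) without adult replicate 2. Without adult replicate 1, Per2 in CTX (-0.76) and FT (-0.61), Dbp in CTX (-0.65) and TH (-0.65), and Nr1d2 in STR (-0.61) were called.

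The comparison of aged with adult sections, which uses the same 2 adult sections, asked which members changed in old age. Per2 changed most among the members, higher in aged sections by 1.28 ± 0.14 (SE; adjusted p = 0.000186) on the log2 scale. Cry1 (0.81 ± 0.11 SE, adjusted p = 0.00041), Per1 (0.71 ± 0.080 SE, adjusted p = 0.000212) and Cry2 (0.63 ± 0.092 SE, adjusted p = 0.000672) were also called higher by edgeR. That made 4 of 9 members, against 8.87% of 11315 genes called in either direction and 6.02% called higher. Per3 did not pass, with a 95% interval of -0.16 to 0.10 around -0.028. For Nr1d1 (0.17, -0.031 to 0.38), Nr1d2 (0.069, -0.067 to 0.21), Tef (0.092, -0.029 to 0.21) and Dbp (-0.22, -0.41 to -0.036), the log2 differences and their 95% intervals did not reach a call. The median log2 difference over the 9 members was 0.17, against 0.0017 over all genes tested. Immediate early genes (8 of 8 called) and glucocorticoid-induced genes (5 of 7 called) were also higher in aged sections, and their part in these differences was not tested. Ages did not overlap for 6 of 9 members, as for 73.4% of all genes. Without aged replicate 1, Cry2 fell under the fold limit (0.48).

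Across regions, 14 of 54 pairs were called between aged and adult sections, all 14 higher in aged sections, against 14.9% of all pairs and 8.23% for higher calls. In single regions, 10.9% of genes were called in CTX, 11.6% in HP, 13.6% in TH, 12.2% in HY, 14.4% in STR and 27.1% in FT, in either direction. Per2 was called in all 6 regions. In CTX it rose from 23.8 and 42.2 CPM in adult to 96.9 and 112 CPM in aged sections (1.68 ± 0.18 SE, adjusted p = 2.89e-05). In HY, where its difference was smallest, it rose from 30.6 and 35.1 CPM to 50.9 and 55.1 CPM (0.69 ± 0.12 SE, adjusted p = 0.00285). Its log2 differences were 1.19 in TH, 0.96 in HP, 0.93 in STR and 0.97 in FT. Per1 was called in 3 regions. It rose in CTX from 85.6 and 74.5 CPM to 152 and 155 CPM (0.94 ± 0.088 SE, adjusted p = 1.38e-05), in TH by 0.84 and in FT by 0.76. In FT, where both Per1 and Per2 were called, summed markers of other cells also differed between adult and aged sections. Astrocyte markers (5 genes) stood at 2427 and 2526 CPM against 4971 and 5236 CPM, microglial markers (4 genes) at 218 and 242 CPM against 393 and 436 CPM, and neuron markers (3 genes) at 3008 and 2591 CPM against 1412 and 1373 CPM, and their part in the FT calls was not tested. Cry1 rose in CTX from 15.5 and 23.7 CPM to 42.0 and 42.6 CPM (1.12 ± 0.15 SE, adjusted p = 0.000113), in TH by 0.72 and in STR by 0.70. Cry2 was called in CTX, from 119 and 125 CPM to 229.6 and 186 CPM (0.78 ± 0.10 SE, adjusted p = 0.000131), and in STR (0.69). CTX held all 4 of the genes called in whole sections. Whole-section sums include the CTX spots, so this overlap was partly set beforehand. Dbp passed the adjusted p, without the fold, in HY (-0.47 ± 0.11 SE, adjusted p = 0.0133) and FT (-0.33 ± 0.11 SE, adjusted p = 0.0158), lower in aged sections in both. Nr1d1 likewise passed the adjusted p alone in CTX (0.34 ± 0.11 SE, adjusted p = 0.0211), HP (0.30 ± 0.10 SE, adjusted p = 0.0464) and STR (0.31 ± 0.10 SE, adjusted p = 0.0314), higher in aged sections in all 3. The other 9 pairs that passed it without the fold were of Per1, Cry1 and Cry2, higher in aged sections by 0.32 (Per1 in HP) to 0.54 (Cry1 in HY). Per3, Nr1d1, Nr1d2 and Tef were called in no region. The calls of Cry1 in TH (0.57) and STR (0.51) were lost without adult replicate 1, and that of Cry2 in STR without aged replicate 1 (0.54) and after thinning (0.53). Leaving out 1 section also added calls, with Dbp lower in HY without aged replicate 1 (-0.60), Per1 in STR without adult replicate 1 or aged replicate 1 (0.65 and 0.63), Cry2 in TH without adult replicate 2 or aged replicate 2 (0.62 and 0.64), and Cry1 in FT without the same sections (0.68 and 0.63).

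**Figure D3:**
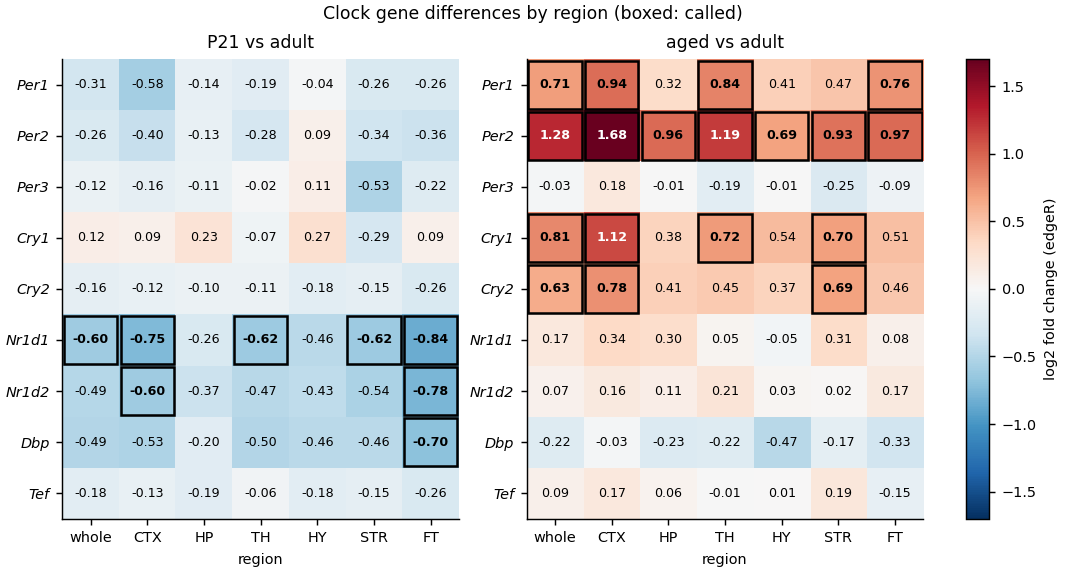
Log2 differences from adult sections (color) for the 9 members (rows) in whole sections and 6 regions (columns), P21 on the left and aged on the right, with called pairs boxed. Called pairs are all lower at P21, mostly in Nr1d1 and Nr1d2, and all higher in aged sections, led by Per2 from 0.69 in HY to 1.68 in CTX.

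**Figure D4:**
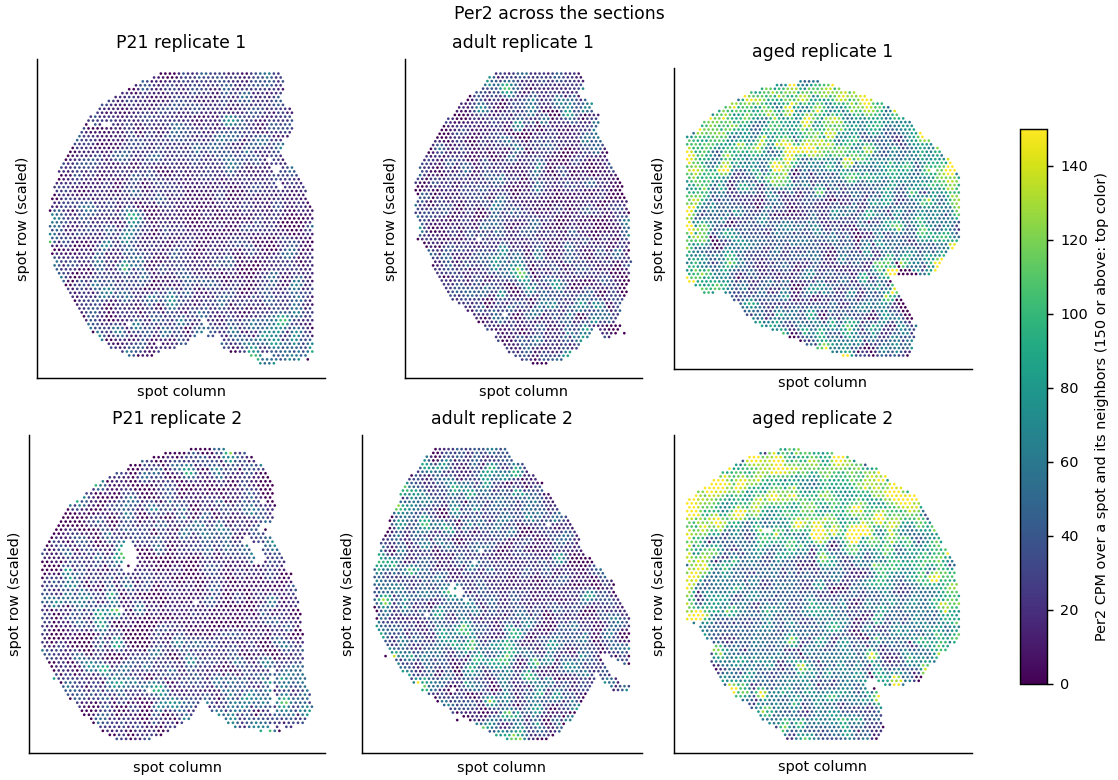
Per2 over the 6 sections, each spot colored by its CPM over itself and its neighbors (150 CPM or more shown in the top color), with the axes giving the spot's column and row on the slide. The aged sections, at 71.7 and 82.1 CPM in whole sections, are brighter than the P21 and adult ones, most of all along the cortex.

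Whether the age difference of a gene varied between regions was tested by a region-by-age term in edgeR over 36 sums of section and region. For P21 against adult, it passed for Nr1d1 (adjusted p = 0.00402), Per1 (adjusted p = 0.0362) and Dbp (adjusted p = 0.0433), 3 of 9 members against 14.5% of 11338 genes. The log2 difference of Nr1d1 ran from -0.84 in FT to -0.26 in HP, and that of Per1 from -0.58 in CTX to -0.039 in HY. Dbp ran from -0.70 in FT to -0.20 in HP. For aged against adult, it passed for 7 of 9, against 48.8% of genes, so such variation was common in this comparison. Per2 (adjusted p = 3.67e-06) and Per1 (adjusted p = 0.000239) led, and Per3 and Nr1d2 did not pass. Tef did not pass without FT (adjusted p = 0.247), nor did Cry2 over interior spots (adjusted p = 0.0671). Per1 differed by 0.94 in CTX and 0.32 in HP. For P21, Nr1d1 alone passed without P21 replicate 1. Without adult replicate 1, Per2 passed, whereas Nr1d1, Per1 and Dbp did not. No member passed without P21 replicate 2 or adult replicate 2. Without aged replicate 2, Per3 and Nr1d2 passed beside Nr1d1, Per1 and Dbp. Per3 also passed beside them without aged replicate 1. For P21, Per2 passed over interior spots (adjusted p = 0.0144) and Nr1d2 with plain CPM (adjusted p = 0.0154). Without FT, Nr1d1 was the 1 member that passed for P21 (adjusted p = 0.0222), and Per1 and Dbp did not. For aged, Per2, Per1 and Nr1d1 passed with each section left out in turn. Per3 passed without aged replicate 1. Dbp, Cry1, Cry2 and Tef did not pass without adult replicate 1. Dbp and Cry2 also did not pass without adult replicate 2, Cry2 without aged replicate 1 and Tef without aged replicate 2.

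The rest of the pathway was read from lists. In the positive limb, Clock, Arntl, Npas2 and Arntl2, 0 of 4 genes were called in whole sections in either comparison by edgeR. At an unadjusted p under 0.05 there were 0 for P21 and 2 for aged sections, and DESeq2 results were not read out for this list. Arntl, the partner of CLOCK and a target of the REV-ERB receptors, stood at 54.6 and 53.2 CPM at P21, 61.9 and 52.3 CPM in adult and 49.1 and 53.6 CPM in aged sections, and the aged difference was -0.16 ± 0.083 (SE; adjusted p = 0.15). Clock stood at 43.9 and 46.2 CPM at P21, 49.0 and 45.0 CPM in adult and 39.5 and 43.9 CPM in aged sections, with all ages close together. Npas2, a paralog of Clock, was at 57.5 and 57.2 CPM at P21, 57.2 and 50.5 CPM in adult and 55.3 and 51.4 CPM in aged sections and was called lower in aged HP (-0.84 ± 0.14 SE, adjusted p = 0.00125) and FT (-0.70 ± 0.15 SE, adjusted p = 0.0008). Arntl2 was at 13.3 and 14.2 CPM at P21, 13.5 and 11.9 CPM in adult and 8.71 and 11.6 CPM in aged sections and was called lower in aged TH (-0.80, adjusted p = 0.00826). The median log2 difference of this limb was 0.033 at P21 and -0.17 in aged sections.

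Outside the members, 6 receptors and repressors were tested (Rora, Rorb, Nfil3, Bhlhe40, Bhlhe41 and Hlf). Bhlhe40, whose product DEC1 represses through E-boxes and also responds to activity and hypoxia, stood at 115 and 113 CPM at P21, 178 and 195 CPM in adult and 285 and 308 CPM in aged sections. It was called lower at P21 (-0.69 ± 0.062 SE, adjusted p = 0.00012) and higher in aged sections (0.67 ± 0.062 SE, adjusted p = 9.28e-05), with 1.27 in aged CTX. Its paralog Bhlhe41 was called lower at P21 in 4 regions (CTX, HP, STR and FT) and higher in aged CTX and FT. Rorb, a receptor that activates through the same element as the REV-ERBs repress, was called lower in 4 aged regions, HP (-1.28), STR (-0.96), HY (-0.70) and FT (-0.67), and is also a marker of cortical layer neurons. Outside the rule for naming, and picked after values were seen, Rora was lower in aged HP (-0.91) and Nfil3 higher in P21 FT (0.80). Of the regulators of clock proteins (casein kinases, F-box proteins, Timeless and Gsk3b), 6 of 8 were tested and 0 were called by edgeR in whole sections or any region, and 3 and 1 of them had an unadjusted p under 0.05 in whole sections for P21 and aged. Of the output genes Usp2, Wee1, Nampt, Coq10b and Tsc22d3, 4 of 5 were tested and 0 were called in whole sections, with 1 and 2 at an unadjusted p under 0.05. Tsc22d3, also outside the rule for naming and picked after values were seen, was the 1 called in a region, aged FT (0.60).

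Genes that respond to activity and to glucocorticoids moved in the same comparisons. Of 8 immediate early genes, 5 were called lower at P21 (Fosb, Junb, Arc, Dusp1 and Egr1), and 8 of 8 were called higher in aged sections. Their summed level was 202 and 204 CPM at P21, 454 and 293 CPM in adult and 1378 and 1256 CPM in aged sections. Egr1 stood at 49.1 and 58.0 CPM at P21, 142 and 92.4 CPM in adult and 699 and 651 CPM in aged sections, with the aged values far above the rest. Of 7 glucocorticoid-induced genes, 5 were called higher in aged sections (Pdk4, Sult1a1, Zbtb16, Sgk1 and Fkbp5), with 1 higher (Sult1a1) and 1 lower (Pdk4) at P21. Their sum was 255 and 237 CPM at P21, 267 and 252 CPM in adult and 428 and 442 CPM in aged sections. The 4 oligodendrocyte markers were called higher at P21 and lower in aged sections, with sums of 18284 and 19084 CPM at P21, 9013 and 8826 CPM in adult and 5500.2 and 5565 CPM in aged sections. Neuron markers (3 genes) summed to 3267 and 3162 CPM at P21, 4576 and 4280.1 CPM in adult and 4132 and 4379 CPM in aged sections, and Syt1 was called higher in aged sections. Sums of astrocyte markers (5 genes) were 1786 and 1769.8 CPM at P21, 1802 and 1781 CPM in adult and 2096 and 2008 CPM in aged sections, with Gfap called higher in aged sections. For 3 endothelial markers, the sums were 147 and 155 CPM at P21, 122 and 116 CPM in adult and 103 and 95.1 CPM in aged sections, and in aged sections Flt1 was called higher and Cldn5 lower. Microglial markers (4 genes) summed to 145 and 158 CPM at P21, 146 and 149 CPM in adult and 138 and 143 CPM in aged sections, with P2ry12 called lower in aged sections. The 3 erythrocyte markers tested, of 4, were called higher at P21, with sums of 2266 and 1284 CPM at P21, 319.7 and 166 CPM in adult and 140.4 and 228 CPM in aged sections. The part of these genes in the clock gene differences was not tested.

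Within an age, the 2 sections differed little at P21 and more in adults. At P21, the log2 ratio of replicate 2 to replicate 1 lay between -0.083 and 0.091 for all 9 members. In adults, the ratio was 0.52 (95% counting interval 0.42 to 0.62) for Per2, a size exceeding that of 99.6% of genes of at least 20 CPM. Counting intervals cover counting error only. For Cry1 it was 0.37 (95% counting interval 0.25 to 0.49), and for Dbp 0.23 (95% counting interval 0.19 to 0.28). Ratios under 0 were found for Nr1d1, at -0.24 (95% counting interval -0.29 to -0.20), Per1, at -0.22 (95% counting interval -0.29 to -0.16), and Arntl, at -0.24 (95% counting interval -0.32 to -0.17). Adult replicate 2 thus held more Per2, Cry1 and Dbp and less Nr1d1, Per1 and Arntl. In the regions of these same 2 sections, Dbp and Per2 were higher in adult replicate 2 in 6 of 6, with a counting interval above 0 in 6 and 5, and Per1, Nr1d1 and Arntl were lower in 6 of 6, with an interval below 0 in 4, 5 and 3. Cry1 was higher in adult replicate 2 in 5 of 6, with an interval above 0 in 3. These genes were named for their ratio in the same 2 whole sections, so a shared sign over the regions was partly set beforehand. Of 8400 genes of at least 20 CPM, not picked in this way, 14.1% had 1 sign in all 6 adult regions. That share is therefore no like background for them. Immediate early genes also differed between the 2 adult sections, with ratios of -0.62 for Egr1, -0.85 for Arc and -1.33 for Fos. Among aged sections, the members ranged from -0.26 (Cry2) to 0.20 (Nr1d2), within the 95th percentile of 0.303 for the size over all genes of at least 20 CPM, whereas that percentile was 0.202 in adults. All comparisons with adult sections rest on this pair. The aged difference of Per2 in whole sections exceeded it, at 1.04 without adult replicate 1 and 1.57 without adult replicate 2.

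**Figure D5:**
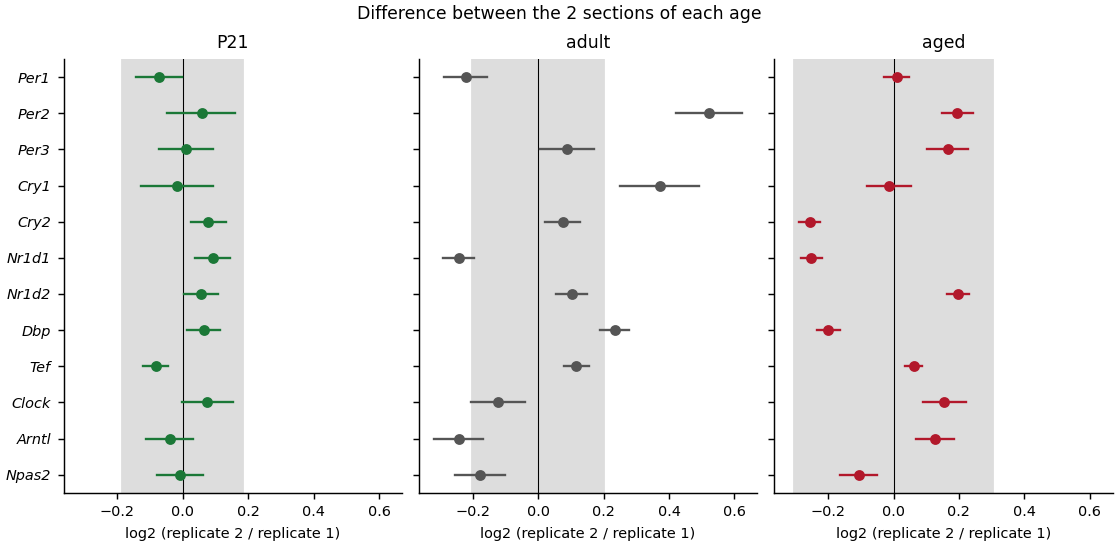
Log2 ratio of replicate 2 to replicate 1 (horizontal axis) for clock genes (rows) in whole sections of each age (panels), with bars for the 95% counting interval and a gray band for the 95th percentile of the size over genes of at least 20 CPM. At P21 the members lie within the band, whereas in adults Per2 (0.52), Cry1 (0.37), Dbp (0.23), Nr1d1 (-0.24), Per1 (-0.22) and Arntl (-0.24) lie outside it.

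Hippocampal spots were divided into CA1-2 (171 spots), CA3 (207), dentate gyrus (DG, 237) and 1319 remaining spots. The last group met the naming rule for the matrix panel (Aqp4, Gfap, Mbp and Gja1), with 4 panel genes raised. It was led by Myoc and collagen genes such as Col1a1, so the name is not used here. Dbp was higher in CA1-2 than in CA3 in 6 of 6 sections, by 1.17 on the log2 scale on average (0.97 to 1.63). The same held for Cry1 (1.01), Per1 (1.0), Nr1d1 (0.70), Nr1d2 (0.64) and Cry2 (0.26). Cry1 in CA3 stood at 3.79 to 12.0 CPM and rested on as few as 2 UMIs in a section. Per3 was higher in DG than in CA1-2 in 6 of 6 sections, the mean log2 ratio of CA1-2 to DG being -1.11 (-1.91 to -0.35). Tef (-0.58), Cry1 (-0.50) and Cry2 (-0.29) had the same order, whereas Nr1d1 was higher in CA1-2 than in DG in 6 of 6 sections (0.42). Per2 was higher in DG than in CA3 in 6 of 6 sections but showed no constant order of CA1-2 and CA3 (5 of 6). Outside the 6 regions, meningeal spots (1026) held Dbp at 241 and 261 CPM in adult sections and 119 and 142 CPM at P21. Per2 stood there at 106 and 104 CPM in aged and 40.9 and 52.1 CPM in adult sections. These zones were described and not tested for age.

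Levels of the members over the 36 sums of section and region ran together to different degrees, given here as a description since sums of a section share their library and depth. On log2(CPM + 1), Nr1d1 and Nr1d2 had the highest Pearson correlation (0.86), followed by Per1 with Cry2 (0.81) and Per1 with Per2 (0.78). Per3 and Nr1d2 had the lowest (0.020). Dbp had 0.45 with Per1. Of 8509 genes of at least 20 CPM, those most like Dbp were Cyld (0.83), Scn4b (0.81), Gnal (0.80), Zdhhc17 (0.79) and Tenm3 (0.78). Those most like Per1 were Pcmtd1 (0.88), Foxo3 (0.85), Emsy (0.85), Dym (0.85) and Arhgef12 (0.84). The deposited Moran's I, a score of how alike neighboring spots are within a section, had medians for the members over 6 sections that ran from 0.0186 for Cry1 to 0.0791 for Nr1d1. For Per1 it was 0.0193 to 0.0296 over the 4 sections of P21 and adult mice, against 0.125 and 0.171 in aged mice, and for Per2 0.0225 to 0.0451 against 0.159 and 0.178. The other members were also higher in both aged sections than in the rest, such as Nr1d1 at 0.161 and 0.190 against 0.0539 to 0.0793. The receptor gene Rora, for comparison, had 0.595. Over all genes listed in a section, the median was 0.0113 to 0.0166 in P21 and adult sections and 0.0226 and 0.0295 in aged ones. Moran's I thus rose in aged sections over all genes as well. The scores came from software version 3.1.1 for aged and 2.0.0 for P21 and adult sections. Age cannot be told apart from software and slide version in these scores. Ranked within a section, Per1 stood at percentile 60.1 to 66.8 in P21 and adult sections and 82.3 and 84.1 in aged ones. Per2 stood at percentile 61.9 to 73.2 against 85.6 and 84.8. Cry2 and Tef also ranked higher in both aged sections than in the rest, whereas Per3, Dbp, Nr1d1, Nr1d2 and Cry1 did not. Members other than Cry1 lay between percentile 60.1 (Per1) and percentile 86.1 (Nr1d1) of their section. Cry1 reached down to percentile 37.5.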

How the data were processed

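The 10 clock symbols and all gene lists were chosen with earlier results of these data known. The authors deposited raw UMI counts per gene and spot from 10x Genomics Space Ranger (probe alignment to mm10), whose file headers name version 2.0.0 (P21, adult) and 3.1.1 (aged). The submitters' processing notes name 2.1.0 instead, with Seurat 5.1.0. The deposited Moran's I is a score per gene and section from the same software. Its p-value and the normalized mean signal that the authors deposited beside it were read for their unit and not used.

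Spots of at least 250 genes and 500 UMIs were kept. Clusters (13, named from marker panels) came from leidenalg 0.10.2 at resolution 0.3, on a graph of 20 neighbors over 10 principal components of 3000 variable genes, scaled section by section. 605 genes, the clock and pathway lists included, were kept out of clustering. HP was divided at resolution 0.1. UMIs were summed per section and zone and tested with edgeR 4.0.16 (R 4.3.3), TMM factors, quasi-likelihood, all 6 sections and age as the term, since spots of a section are not replicates. Genes passed filterByExpr, a UMI in over 10% of a zone's spots at either age and in at least 10% of all spots, and all 9 members passed in all zones tested. Each was adjusted by Benjamini-Hochberg over all genes. Printed levels are plain CPM and differences are TMM-scaled. Medians of 12074.5 to 25535 UMIs per spot set the counting precision. On simulated counts for P21 against adult with 200 genes changed 2-fold, 100% were recovered in whole sections (11153 genes, 3 false calls) and 99.5% in CTX (11001 genes, 2 false calls). The P21 differences of the members were all smaller than 2-fold, so recovery at their size was not tested.

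All members, the positive limb and list genes called in whole sections or in at least 3 of 6 regions were named, with the 5 genes most like Dbp and Per1. 1 further gene of the list of receptors and repressors is not reported here. Barcodes name grid positions: sections on the same slide version shared 2607 to 3363 of them and those on different versions 0. Alternatives were DESeq2 1.42.0, plain CPM, filterByExpr alone, no fold threshold, thinned counts, interior spots, only the 4 sections compared, a replicate block, the interaction without FT, and leaving out each section.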

Additional observations from a re-analysis of the deposited data

Results flagged for a closer look

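The age difference of 7 members varied between the 6 regions by a test of the region-by-age terms (edgeR's quasi-likelihood test, adjusted over all genes). The same test passed for 14.5% of 11338 genes for P21 and 48.8% for aged, so such variation was common in the aged comparison. For P21 against adult, the adjusted p was 0.00402 for Nr1d1, 0.0362 for Per1 and 0.0433 for Dbp, of which Nr1d1 alone passed without FT. When a P21 or adult section was left out, Nr1d1 passed only without P21 replicate 1, and Per1 and Dbp never passed. For aged against adult, the adjusted p was 3.67e-06 for Per2, 0.000239 for Per1, 0.00181 for Nr1d1, 0.00693 for Dbp, 0.0124 for Cry2, 0.0128 for Cry1 and 0.0174 for Tef. Of these, Tef did not pass without FT (adjusted p = 0.247), and Cry2 did not pass over interior spots (adjusted p = 0.0671). With 1 section left out in turn, Per2, Per1 and Nr1d1 passed each time, and Per3 passed without aged replicate 1. Dbp, Cry1, Cry2 and Tef did not pass without adult replicate 1. Dbp and Cry2 also did not pass without adult replicate 2, Cry2 without aged replicate 1 and Tef without aged replicate 2. With 2 sections per age, no group was large enough for the check of single outlying samples.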

How the results depend on the processing

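With the adjusted p alone, 4 members were called in whole sections for P21 and 18 of 54 pairs, and 28 of 54 pairs for aged against adult. The share of all genes that passed the adjusted p alone is not given, so these counts have no background. Without FT, 1 member (Nr1d1) passed the interaction for P21. Leaving out 1 section at a time, the members called at P21 in whole sections numbered 0 to 1, those with an interaction 0 to 5 for P21 and 3 to 7 for aged. Shares of all genes are not set beside these counts, so a change particular to the members cannot be read from them, and the cause was not tested. Deviations of same-numbered sections had correlations of 0.14 (P21 with adult), -0.13 (P21 with aged) and -0.45 (adult with aged) over 11153 genes. The labels give the numbers no meaning across ages, so these correlations cannot show whether the mice were paired. With the replicate block, 1 and 4 members were called in whole sections in P21 and aged comparisons, against 5.21% and 8.83% of all genes. Pairs called numbered 8 and 14. In single regions, 3.33% (HY) to 9.32% (FT) of all genes were called for P21 and 10.9% (CTX) to 27% (FT) for aged. The added pair was Per1 in CTX at P21 (-0.59), which also passed with plain CPM (-0.60), filterByExpr alone (-0.60) and interior spots (-0.64). Under filterByExpr alone, aged differences in whole sections shifted by -0.11 (median over members), and Cry2 fell under the fold limit (0.53). Over all values recomputed, 1424 kept their direction and side of the threshold, 51 turned direction, 21 newly passed and 16 no longer passed. With interior spots, log2 fold changes of the other sign were 0.043 for Per1 in HY (P21 vs adult), 0.046 for Per3 in HP (aged vs adult), 0.022 for Tef in TH (aged vs adult), -0.023 for Tef in HY (aged vs adult) and 0.010 for Per3 in FT (aged vs adult). With the filterByExpr filter alone, log2 fold changes of the other sign were -0.037 for Nr1d2 in whole sections (aged vs adult), -0.015 for Tef in whole sections (aged vs adult), 0.017 for Tef in TH (aged vs adult) and -0.019 for Tef in HY (aged vs adult). With DESeq2, log2 fold changes of the other sign were 0.0046 for Tef in TH (aged vs adult) and -0.0011 for Tef in HY (aged vs adult). With counts thinned to the lowest section, log2 fold changes of the other sign were 0.0084 for Tef in TH (aged vs adult). In the P21 vs adult comparison the log2 fold changes that crossed 0 when 1 section at a time was left out were Per2 from -0.50 to 0.026 in whole sections, -0.76 to 0.060 in CTX, -0.35 to 0.16 in HP and -0.016 to 0.19 in HY, Cry1 from -0.059 to 0.32 in whole sections, -0.20 to 0.41 in CTX, -0.080 to 0.40 in HP, -0.25 to 0.15 in TH and -0.085 to 0.29 in FT, Per3 from -0.10 to 0.087 in TH, Cry2 from -0.23 to 0.044 in TH, Tef from -0.15 to 0.037 in TH and Per1 from -0.15 to 0.081 in HY. In the aged vs adult comparison the log2 fold changes that crossed 0 when 1 section at a time was left out were Per3 from -0.091 to 0.031 in whole sections, -0.17 to 0.12 in HP and -0.19 to 0.17 in HY, Nr1d2 from -0.010 to 0.14 in whole sections, -0.11 to 0.14 in HY and -0.062 to 0.091 in STR, Dbp from -0.16 to 0.095 in CTX, Tef from -0.022 to 0.12 in HP, -0.068 to 0.12 in TH and -0.047 to 0.052 in HY and Nr1d1 from -0.11 to 0.22 in TH, -0.21 to 0.11 in HY and -0.074 to 0.23 in FT. With 2 sections per age, only differences well above the spread between sections could be called.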
